A study of Mus musculus with 12 samples.

Results

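A set of 10 genes of muscle wasting and glucocorticoid response was described in the gastrocnemius, a calf muscle, of 12 mice aged 32 weeks. They were chosen by symbol, and all of them were found among the 30488 gene symbols in the deposited expression values. They are the ubiquitin ligase genes Trim63, Fbxo32 and Fbxo30, the transcription factor genes Foxo1 and Foxo3, and the glucocorticoid-responsive genes Klf15, Fkbp5, Tsc22d3 and Ddit4, with Cebpb. The choice was made with earlier results of these libraries known, among them the differences of Trim63, Fbxo32, Klf15 and Cebpb from wild type. Their differences between genotypes are therefore given as a description and not as independent evidence. The study asks how Gmppb, which encodes the enzyme that makes GDP-mannose for glycan assembly, bears on muscle. RNA sequencing compared 3 wild-type mice (WT) with 3 mice of each of 3 engineered lines, all on a standard diet and anesthetized for collection. The KO mice carried 1 allele from which Cas9 had removed exons 2 and 3, 303 bp in all, and were heterozygous. The P32L mice were heterozygous for a change of base 95 that turns proline at residue 32 into leucine. The R287Q mice were homozygous for a change of base 860 that turns arginine at residue 287 into glutamine, so the dose of the altered allele differed between the lines. The labels used here name no strain, sex, litter, feeding state or hour of collection, and do not say whether the mice of a group came from separate litters, so p-values measure only the spread between these mice.

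When muscle wastes, the ubiquitin ligases MuRF1, the product of Trim63, and atrogin, the product of Fbxo32, mark muscle proteins for breakdown by the proteasome. Their genes are turned on by FOXO transcription factors, which insulin and AKT signalling hold outside the nucleus, and by the glucocorticoid receptor, which cortisol or corticosterone activates. Fasting, denervation, disuse, inflammation and glucocorticoid treatment are known to raise both ligase genes, so their transcripts are widely used as markers of wasting. The glucocorticoid receptor also induces KLF15, which drives amino acid breakdown, and proteins that limit hormone action, inflammation and mTORC1 signalling.

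Levels are in TPM, which divides reads by transcript length and scales every library to the same sum. Differences between groups are differences of mean log2(TPM + 1), a scale that compresses the fold of weakly expressed genes, and the depth of the libraries is unknown. All 10 skeletal muscle fibre markers were high, from a mean of 43.1 TPM for the giant sarcomere protein gene Ttn to 18910 TPM for the actin gene Acta1. Mitochondrially encoded transcripts took 53.0% to 58.4% of each library, and the rest shared what remained. Gmppb itself was at 3.02 to 4.42 TPM in WT, 3.33 to 3.62 TPM in KO, 3.26 to 3.57 TPM in P32L and 3.03 to 4.16 TPM in R287Q. These ranges overlapped, and a value per gene shows neither a deleted stretch nor a base change, so the level of Gmppb is no check on the genotypes. Of the 10 genes, 7 reached a mean of 1 TPM over the 12 libraries and were tested among 9152 genes. Foxo1, Foxo3 and Fkbp5 stayed below it and were not tested.

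Trim63 was the most abundant of the 10 genes, at a mean of 44.3 TPM, above 92.6% of the tested genes. The WT mice had 39.6, 33.5 and 34.6 TPM and the KO mice 45.5, 48.7 and 44.4 TPM. The P32L mice had 50.7, 51.1 and 54.1 TPM and the R287Q mice 40.5, 44.0 and 44.4 TPM. All 9 mutant mice lay above all 3 WT mice, with the P32L mice highest and no overlap between P32L and any other group. The group means were 35.9 ± 3.24 TPM in WT, 46.2 ± 2.26 TPM in KO, 52.0 ± 1.89 TPM in P32L and 42.9 ± 2.17 TPM in R287Q (SD, n = 3 each). Against WT this made 1.28-fold in KO, 1.45-fold in P32L and 1.20-fold in R287Q. Trim63 lies on chromosome 4 (134315120 to 134329629, plus strand, mm10).

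The 250 bases before the Trim63 start, chr4:134314870-134315119 on the plus strand (RefSeq, GRCm38.p6), are shown because they hold a receptor palindrome and a FOXO element side by side.
Trim63: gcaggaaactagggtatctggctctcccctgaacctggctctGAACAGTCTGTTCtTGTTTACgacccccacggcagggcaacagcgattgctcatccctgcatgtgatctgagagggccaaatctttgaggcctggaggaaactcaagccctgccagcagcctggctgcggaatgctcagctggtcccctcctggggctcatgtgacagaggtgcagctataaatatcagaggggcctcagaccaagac
The first run of capitals is a match to the core letters of the glucocorticoid receptor palindrome, GNACA and TGTNC with 3 free bases between them, at -208 to -196 counted from the start (134314912 to 134314924). The second is a match on the minus strand to the FOXO element GTAAACA, at -194 to -188 (134314926 to 134314932). The motifs do not overlap here. Both strands of 32851 promoter windows of this length were searched: 0.387% held the palindrome core, 3.17% the FOXO element, and 3 held both, those of Trim63, Txnip and Gm34099. The stricter palindrome, AGAACA and TGTTCT with 3 free bases between them, was in 0.00913% of windows and in none of the 11 windows of 9 of the 10 genes, Fbxo32 having no entry in the table used. Trim63 held the only match to the palindrome core and to the FOXO element among the 11. The single arm AGAACA, which overlaps the palindrome in Trim63, was in 16.1% of windows and in 2 of the 11. The FOXO core AAACA was in 46.4% and in 3 of the 11, the myogenic E-box CAGCTG in 13.0% and in 1, and the C/EBP core and the CREB element, in 9.56% and 1.55%, were in none. Of the 3 FOXO core windows, 1 was a Tsc22d3 window whose bases after the start were not found in a transcript of that gene. A match is a description of the letters, and binding was not measured.

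For Fbxo32, the gene of atrogin, the 3 WT mice had 23.7, 22.4 and 19.2 TPM and the KO mice 27.3, 29.1 and 25.2 TPM. The P32L mice had 32.1, 27.4 and 31.4 TPM and the R287Q mice 18.1, 21.0 and 24.7 TPM. The KO and P32L mice lay above every WT mouse, while the R287Q mice spanned the WT range and held the lowest value of the 12. The means were 21.8 ± 2.33 TPM in WT, 27.2 ± 1.96 TPM in KO, 30.3 ± 2.54 TPM in P32L and 21.3 ± 3.31 TPM in R287Q (SD, n = 3 each). The difference of R287Q from WT was -0.04 on the log2 scale and turned to between 0.01 and 0.04 under the other scalings tried. Fbxo32 (chromosome 15, 58175879 to 58214932, minus strand) shares 186 of its 6976 exon bases with Gm15943 on the other strand, which the unstranded kit cannot separate.

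Within each library, Trim63 was more abundant than Fbxo32, and the ratio of their TPM was 1.66 ± 0.155 in WT, 1.70 ± 0.0532 in KO, 1.72 ± 0.144 in P32L and 2.04 ± 0.224 in R287Q (SD, n = 3 each). The R287Q mice had ratios of 2.24, 2.09 and 1.80, and the last of them lay below the highest WT mouse, at 1.81. This ratio was chosen after the values were seen and was not tested.

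Fbxo30, which encodes a ligase known in mouse muscle as MUSA1 and induced by denervation, varied least of the 10 genes. It ran from 3.54 to 4.82 TPM over the 12 mice, a 1.36-fold range. The WT mice had 3.88, 3.56 and 4.19 TPM, against 4.82, 4.31 and 4.21 TPM in P32L. All P32L mice lay above the WT mice, the nearest values being 4.21 and 4.19 TPM. KO (3.54 to 4.25 TPM) and R287Q (3.75 to 4.13 TPM) overlapped WT.

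**Figure D1:**
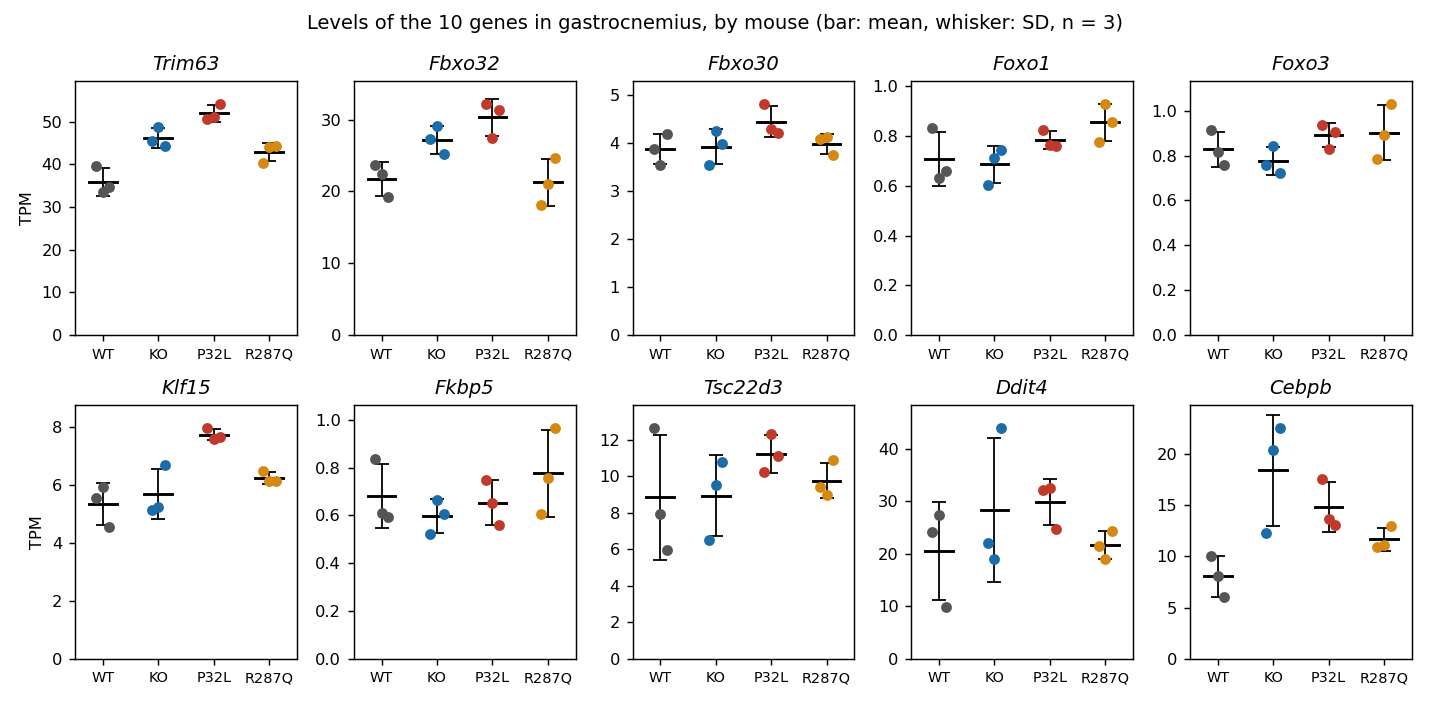
Each panel gives 1 gene, with TPM on a linear axis from 0, a point for each mouse, a bar for the group mean and a whisker for the SD (n = 3). All 9 mutant mice lie above the 3 WT mice for Trim63 and Cebpb, while Foxo1, Foxo3, Fkbp5, Tsc22d3 and Ddit4 overlap WT in every line.

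The FOXO genes were low at the transcript level. Foxo1, which encodes a FOXO factor that fasting raises in muscle, read 0.834, 0.631 and 0.660 TPM in the 3 WT mice. The KO mice had 0.602, 0.712 and 0.744 TPM, the P32L mice 0.826, 0.765 and 0.761 TPM and the R287Q mice 0.778, 0.928 and 0.858 TPM. WT overlapped every line, and the KO mice lay below all P32L and all R287Q mice. Foxo3, which encodes a FOXO factor that drives the ligase genes and autophagy in mouse muscle, ran from 0.756 to 0.912 TPM in WT and 0.720 to 0.844 TPM in KO. It ran from 0.830 to 0.937 TPM in P32L and 0.786 to 1.03 TPM in R287Q, and no pair of groups was separate. In a fit without the filter on low values, the differences from WT ran from -0.02 to 0.12 for Foxo1 and from -0.04 to 0.06 for Foxo3 (limma, lowest adjusted p = 0.822 and 0.912). FOXO activity is set largely by phosphorylation and place in the cell, which these values do not measure. Foxo1 shares 674 of its 8665 exon bases with Gm20402 on the other strand.

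Klf15, the gene of the glucocorticoid-induced factor, read 5.55, 5.93 and 4.54 TPM in the 3 WT mice, while the KO mice had 5.15, 5.25 and 6.70 TPM. The P32L mice had 7.98, 7.59 and 7.67 TPM and the R287Q mice 6.47, 6.13 and 6.14 TPM. All P32L mice lay above all mice of the other groups, and the R287Q mice lay narrowly above WT. The means were 5.34 ± 0.718 TPM in WT, 5.70 ± 0.869 TPM in KO, 7.75 ± 0.205 TPM in P32L and 6.25 ± 0.197 TPM in R287Q (SD, n = 3 each), or 1.45-fold in P32L and 1.17-fold in R287Q against WT. The difference of KO from WT was 0.08 on the log2 scale, and it was -0.02 without WT replicate 3 and -0.03 without KO replicate 3. That of R287Q was 0.20, and 0.10 without WT replicate 3, and the R287Q mice overlapped WT under median-of-ratios scaling and quantile normalization.

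Klf15 lies on chromosome 6 (90462576 to 90475238, plus strand, mm10), and its expression is known to follow the daily clock. The 250 bases before its start, chr6:90462326-90462575 on the plus strand (RefSeq, GRCm38.p6), are shown for their E-boxes, the CACGTG element that the clock factors CLOCK and BMAL1 bind.
Klf15: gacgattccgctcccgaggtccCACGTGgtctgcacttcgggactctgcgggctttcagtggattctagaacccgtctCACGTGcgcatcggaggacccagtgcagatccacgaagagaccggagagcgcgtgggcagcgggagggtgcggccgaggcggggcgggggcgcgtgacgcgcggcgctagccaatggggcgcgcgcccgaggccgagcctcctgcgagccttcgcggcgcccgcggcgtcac
The capitals mark 2 E-boxes, at -228 to -223 and -172 to -167 counted from the start. Of all windows, 6.02% held at least 1 CACGTG and 0.429% at least 2. Among the other windows of the 10 genes, that of Fkbp5 held 1.

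Tsc22d3, which encodes the anti-inflammatory leucine zipper protein GILZ, a classic glucocorticoid target, was at 12.7, 7.93 and 5.98 TPM in WT. Those mice held both the highest and the lowest value of the 12. The KO mice had 6.52, 9.52 and 10.8 TPM, the P32L mice 10.2, 12.3 and 11.1 TPM and the R287Q mice 9.44, 9.01 and 10.9 TPM, so every line lay within the WT range. The difference of KO from WT was 0.04 on the log2 scale and -0.02 with mitochondrial genes left out of the scaling, and it was -0.18 without WT replicate 3. The difference of R287Q was 0.18, -0.04 without WT replicate 3 and at most 0.44 on leaving out 1 library.

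Ddit4, which encodes REDD1, an inhibitor of mTORC1 that glucocorticoids and low energy induce, varied most of the 10 genes, by 4.47-fold over the 12 mice. The WT mice had 24.2, 27.4 and 9.84 TPM and the KO mice 22.0, 18.9 and 44.0 TPM. The P32L mice had 32.1, 32.6 and 24.7 TPM and the R287Q mice 21.6, 18.9 and 24.4 TPM. WT replicate 3 was lowest and KO replicate 3 highest, and WT overlapped every line. The difference from WT was 0.47 in KO, 0.63 in P32L and 0.19 in R287Q on the log2 scale. Without WT replicate 3 the 3 differences were 0.04, 0.19 and -0.25, the lowest on leaving out any 1 library. The highest were 0.73, 0.89 and 0.45.

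Fkbp5, which encodes a co-chaperone that dampens the glucocorticoid receptor and is itself strongly induced by it, was the lowest of the 10 genes, at a mean of 0.677 TPM. The WT mice had 0.836, 0.611 and 0.595 TPM and the KO mice 0.522, 0.665 and 0.606 TPM. The P32L mice had 0.748, 0.652 and 0.559 TPM and the R287Q mice 0.604, 0.757 and 0.966 TPM. No pair of groups was separate. In the fit without the filter its differences from WT were -0.07 in KO, -0.02 in P32L and 0.08 in R287Q (limma, lowest adjusted p = 0.926).

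Cebpb, which encodes C/EBP-beta, a factor active in macrophages, fat cells and wasting muscle, had the largest log2 difference from WT among the 7 tested genes in KO, P32L and R287Q. The WT mice had 10.1, 8.05 and 6.04 TPM and the KO mice 12.2, 20.4 and 22.5 TPM. The P32L mice had 17.6, 13.6 and 13.1 TPM and the R287Q mice 10.9, 11.1 and 13.0 TPM. All 9 mutant mice lay above all 3 WT mice, by a small gap in R287Q (10.9 against 10.1 TPM). The means were 8.05 ± 2.01 TPM in WT, 18.4 ± 5.43 TPM in KO, 14.8 ± 2.45 TPM in P32L and 11.7 ± 1.13 TPM in R287Q (SD, n = 3 each), or 2.28-fold, 1.84-fold and 1.45-fold of WT. Cebpb (chromosome 2, 167688915 to 167690418, plus strand) shares 312 of its 1504 exon bases with Tmem189 on the other strand, which averaged 1.12 TPM.

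Macrophages also express Cebpb, and immediate-early genes, which stress and tissue handling induce within minutes, are often measured beside it. Of 10 tested macrophage markers, 10 lay above WT in KO, 10 in P32L and 9 in R287Q, and 0 passed the test over all genes in any line. At an unadjusted p under 0.05 stood 7 of the 10 in KO, 0 in P32L and 1 in R287Q, and the median differences were 0.89, 0.27 and 0.23. The summed level of the 12 macrophage markers was 51.0 to 163 TPM in WT, 150 to 255 TPM in KO, 94.5 to 144 TPM in P32L and 87.3 to 149 TPM in R287Q, and none of the 12 was at 0 in any library. Of 18 tested immediate-early genes, 18 lay above WT in KO, 18 in P32L and 10 in R287Q, with 0 past the test. At an unadjusted p under 0.05 stood 11 of the 18 in KO, 12 in P32L and 1 in R287Q, and the median differences were 0.67, 0.86 and 0.05. Their summed level was 196 to 346 TPM in WT, 261 to 620 TPM in KO, 343 to 506 TPM in P32L and 207 to 268 TPM in R287Q. Of all genes, 52.1% lay above WT in KO, 55.5% in P32L and 36.8% in R287Q, and 5.95%, 6.52% and 5.36% stood at an unadjusted p under 0.05. The part of either list in the Cebpb values was not tested. Summed levels of the other cell types overlapped between WT and every line for the markers of neutrophils, endothelial cells, fat cells and fibroblasts. In bulk tissue, a change in the number of cells of a type and a change in RNA per cell cannot be told apart.

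Over all genes, none of the 7 tested genes passed in any line. The fit used limma on all 12 libraries, with Benjamini-Hochberg adjustment over 9152 genes and a threshold of 0.05. In KO, where 0.0109% of all genes passed, the lowest adjusted p among the 7 was 0.366 for Cebpb (log2 difference 1.08, 95% interval 0.60 to 1.56). In P32L, where 0.0437% passed, it was 0.0862 for Trim63 (0.52, 0.33 to 0.71), followed by Klf15 (0.47, 0.24 to 0.70, adjusted p = 0.213). In R287Q, where 0% passed, it was 0.762 for Trim63 (0.25, 0.06 to 0.44). Trim63 in P32L passed under median-of-ratios scaling (adjusted p = 0.0287) and quantile normalization (adjusted p = 0.0380), with log2 differences of 0.51 in each. At an unadjusted p under 0.05 stood 3 of the 7 in KO, 4 in P32L and 2 in R287Q, against 5.95%, 6.52% and 5.36% of all genes. These contrasts helped to choose the genes, so nothing is read from the counts.

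**Figure D2:**
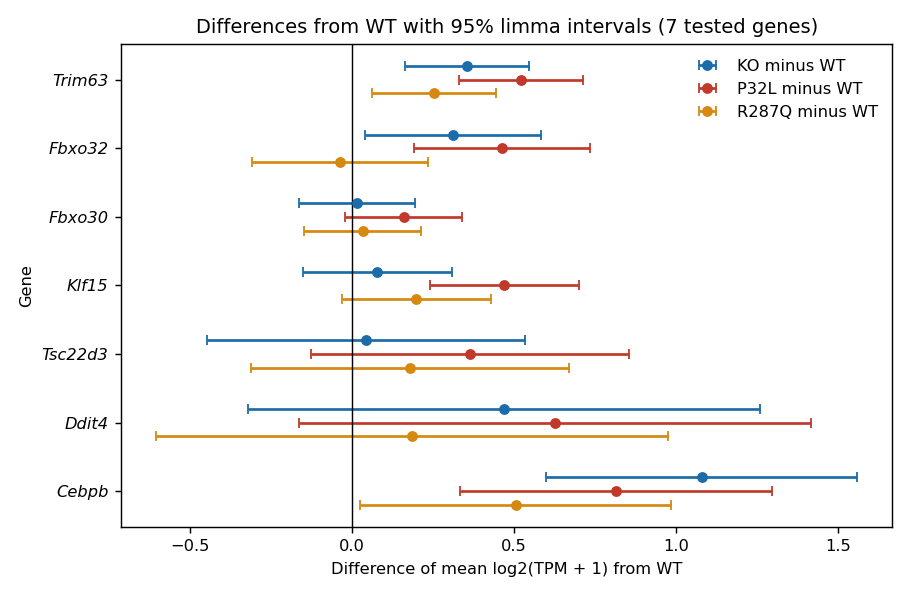
Points give the difference of mean log2(TPM + 1) between each line and WT for the 7 tested genes, and whiskers the 95% interval from limma (n = 3 per group). The 3 intervals of Trim63 and of Cebpb lie above 0, and those of Ddit4 and Tsc22d3 include 0 in every line.

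By ranges, 3 of the 7 tested genes had all KO values above all WT values (Trim63, Fbxo32 and Cebpb), where 4.39% of all genes did. In P32L it was 5 of 7 (those 3 with Fbxo30 and Klf15), against 5.56% of all genes. In R287Q it was 3 of 7 (Trim63, Klf15 and Cebpb), against 3.02%. These counts and shares moved with the scaling. In R287Q they were 2 of 7 against 6.33% under median-of-ratios scaling, 2 of 7 against 5.5% under quantile normalization, and 5 of 10 against 7.62% with mitochondrial transcripts removed. In P32L the same settings gave 4 of 7 against 6.54%, 4 of 7 against 6.04% and 5 of 10 against 6.21%, and Fbxo30 was not among them. In KO it was 3 in each, against 6.36%, 5.4% and 3.96%. None of the 7 had all values below WT in any line, where 3.47%, 3.65% and 5.99% of all genes did. Trim63 and Cebpb had all 9 mutant values above WT, as did 0.404% of the genes tested. The median difference of the 7 was 0.31 in KO, 0.47 in P32L and 0.19 in R287Q, beside 0.01, 0.01 and -0.04 over all genes tested. In KO the median was 0.06 without WT replicate 3 0.11 without KO replicate 3 and 0.00265 when the mitochondrial transcripts were removed before scaling, where all 10 genes passed the filter. In R287Q it was 0.08 without WT replicate 3, 0.11 without R287Q replicate 3 and 0.32 without WT replicate 1. These comparisons share the same 3 WT mice, and the 7 were chosen with such differences in view, so the counts are no support for a shared response.

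Between the lines, P32L had the highest mean of the 4 groups for 6 of the 10 genes, R287Q for 3 (Foxo1, Foxo3 and Fkbp5) and KO for 1 (Cebpb). The R287Q and P32L mice were the most separate: 6 of the 7 tested genes, all but Tsc22d3, had all R287Q values below all P32L values. Of all genes, 10.2% did so, and 2.31% had all R287Q values above. Counts of separate genes between lines were not repeated under the other scalings, and the 7 were chosen with differences from WT in view. A higher mean in R287Q than in P32L was found for 32.7% of all genes and for 0 of the 7, and 3 of the 7 stood at an unadjusted p under 0.05 (6.67% of all genes). Fbxo32 had the lowest p of the 7 in that comparison (log2 difference -0.50, 95% interval -0.77 to -0.23, limma adjusted p = 0.339, with 0% of all genes called). Between P32L and KO, Klf15 stood apart most, 0.39 higher in P32L (0.16 to 0.62, adjusted p = 0.363, 0.0219% called), and it was the 1 of the 7 at an unadjusted p under 0.05 (8.01% of all genes). Trim63 and Klf15 had all P32L values above all KO values, as did 7.99% of genes, and none of the 7 had them all below (4.98%). The mean was higher in P32L for 6 of the 7, all but Cebpb, and for 51.4% of all genes. Between R287Q and KO, Fbxo32 was at -0.35 (-0.62 to -0.08, adjusted p = 0.493, 0.0437% called), and it was the 1 of the 7 with all R287Q values below all KO values (7.97% of genes), with none above (2.68%). At an unadjusted p under 0.05 stood Fbxo32 and Cebpb (7.93% of all genes), and 3 of the 7 had a higher mean in R287Q (34.6%). Over the 4 groups at once, 0 of the 7 passed limma's F test, the lowest adjusted p being 0.201 for Trim63, with 0.0219% of all genes called and 4 of the 7 at an unadjusted p under 0.05 (7.88% of all genes).

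WT replicate 3 was lowest of the 12 mice for 4 of the 10 genes, Klf15, Tsc22d3, Ddit4 and Cebpb, and its mean deviation over the 7 tested genes was -0.53 on the log2 scale. The other WT mice were at -0.04 and -0.19. KO replicate 3 (0.28) and P32L replicate 1 (0.30) were highest, and the R287Q mice lay between -0.11 and 0.03. The P32L mice lay between 0.18 and 0.30.

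**Figure D3:**
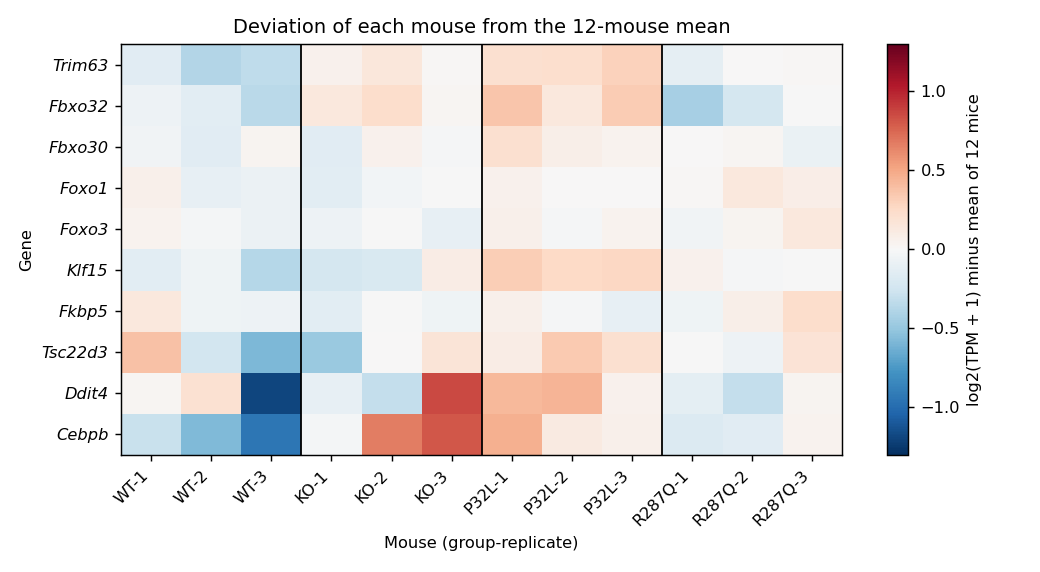
Colours give log2(TPM + 1) of each gene (rows) in each mouse (columns) less the mean of the 12 mice, red above and blue below. WT replicate 3 is blue for 9 of the 10 genes and darkest for Ddit4 and Cebpb, and the P32L columns are mostly red.

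The spread between mice within groups was examined for all 21 pairs of the 7 tested genes, with each group's mean removed. That spread does not enter the size of the group differences by which the genes were known, but it enters their p-values, so these values too are a description. The within-group correlation was above 0 for 15 pairs, with a median r of 0.33, but 0 of 21 passed an exact permutation test over 1296 within-group orders after Benjamini-Hochberg adjustment, by Pearson's r or by Spearman's rho. At an unadjusted p under 0.05 stood 2 pairs. Klf15 and Ddit4 varied together most closely (r = 0.93, exact permutation p = 0.0332, adjusted p = 0.357, Spearman's rho = 0.84, exact permutation p = 0.0741, n = 12 mice). Without the 2 mice farthest from the median of Klf15, WT replicate 3 and P32L replicate 1, r was 0.87. The correlation was above 0 within each of the 4 groups. Here and below, these 2 mice were picked by level over all 12 and not by distance from their group's mean. KO replicate 3, far from its group's mean for both genes, thus stayed in, and r without both it and WT replicate 3 was not computed. Tsc22d3 and Cebpb followed (r = 0.80, exact permutation p = 0.0340, adjusted p = 0.357, rho = 0.62, exact permutation p = 0.112), and r was 0.42 without the 2 mice farthest from the median. The ligase genes Trim63 and Fbxo32 had r = 0.64 (exact permutation p = 0.0718, adjusted p = 0.502, rho = 0.68, exact permutation p = 0.0509), and r was 0.74 without the 2 farthest mice. That r depended on the scaling: it was 0.11 under median-of-ratios scaling, 0.27 with mitochondrial transcripts removed and 0.37 under quantile normalization. For Klf15 and Ddit4 the same 3 settings gave 0.79, 0.77 and 0.79, and for Tsc22d3 and Cebpb 0.70, 0.70 and 0.68. Trim63 and Klf15, both highest in P32L, had r = -0.23 between mice within groups (exact permutation p = 0.569, adjusted p = 0.796, rho = -0.30, exact permutation p = 0.493) and -0.56 without the 2 farthest mice.

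**Figure D4:**
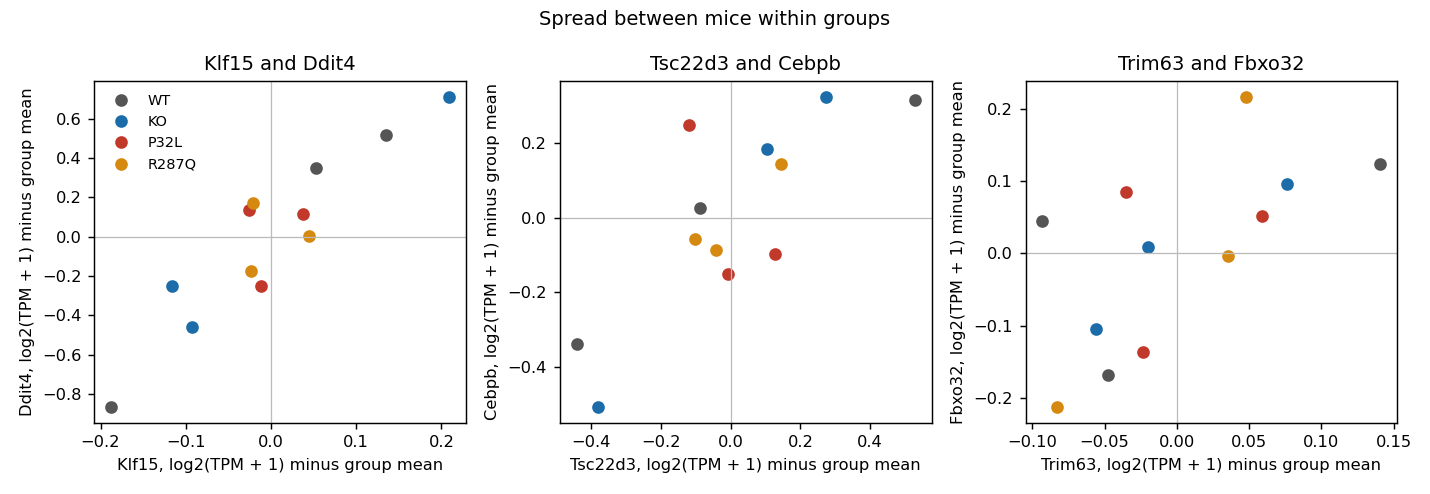
Each point is a mouse, coloured by group, at its log2(TPM + 1) less its group's mean for the gene on each axis. For Klf15 and Ddit4 (r = 0.93), WT replicate 3 and KO replicate 3 lie at the ends and the other mice between them. Trim63 and Fbxo32 scatter more (r = 0.64).

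The 3 genes whose levels followed each of 5 of the 10 genes most closely over the 12 mice were looked up among 7982 tested genes, leaving out gene models without a proper name. The values are a description over 12 mice that share their groups. The r left once each group's mean was removed is given second. Trim63 was followed by Nabp1 (0.94, within groups 0.64), H2-K2 (0.92, 0.44) and Ier5l (0.91, 0.78). Klf15 was followed by Mafk (0.96, 0.91), Frmd8 (0.92, 0.69) and the clock repressor gene Per1 (0.91, 0.69). Tsc22d3 was followed by Erf (0.93, 0.95), Fam76a (0.93, 0.92) and Tubb2a (0.91, 0.90). Fkbp5 was followed by Ercc3 (0.95, 0.95), Ubtf (0.94, 0.97) and Ppfia1 (0.94, 0.93). Cebpb was followed by Sat1, which acetylates polyamines (0.97, 0.96), Tmem134 (0.93, 0.98) and the survival factor gene Mcl1 (0.91, 0.89).

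Genes that act beside the 10 were taken from lists and are given by counts. The lists too were chosen with earlier results of these libraries known, so their counts are a description and no independent evidence. Of 18 other glucocorticoid-induced genes, 16 were tested, and 15 lay above WT in P32L with a median of 0.67, against 55.5% of all genes and a median of 0.01. In KO it was 13 of 16 (median 0.27, against 52.1% of all genes), and in R287Q 11 of 16 (median 0.10, against 36.8%). The lowest of the list in each line was Mstn, at -0.33 in KO, -0.12 in P32L and -0.33 in R287Q (limma adjusted p = 0.695, 0.999 and 0.806). Per1, which the glucocorticoid receptor induces, rose to 11.2 ± 0.846 TPM in P32L from 3.60 ± 0.528 TPM in WT (SD, n = 3 each; log2 difference 1.41, SE 0.18, limma adjusted p = 0.0308) and was the 1 gene of the list called in any line. That call was lost on leaving out any 1 of the 6 WT and P32L mice (adjusted p = 0.0763 to 0.175), with no filter on low values (0.0712) and with the replicate number as a block (0.225). Per1 was also above WT in R287Q, at 7.62 ± 1.16 TPM (0.90, limma adjusted p = 0.425). In KO it was at 5.26 ± 1.72 TPM (0.41, limma adjusted p = 0.825). The glutamine synthetase gene Glul, another receptor target, was at 110 ± 17.2 against 65.5 ± 20.0 TPM in P32L (0.78, adjusted p = 0.322). Pdk4, whose kinase limits glucose oxidation, was at 77.7 ± 38.9 TPM in KO and 80.2 ± 24.8 TPM in R287Q against 24.4 ± 7.48 TPM in WT (1.54 and 1.67, adjusted p = 0.546 and 0.518). It was above WT in P32L too, with a log2 difference of 1.275 (limma adjusted p = 0.533). Cebpd, a paralogue of Cebpb, was at 13.2 ± 4.73 TPM in KO, 12.9 ± 2.84 TPM in P32L and 7.91 ± 1.25 TPM in R287Q against 7.27 ± 2.34 TPM in WT (adjusted p = 0.621, 0.528 and 0.988). Among 4 tested genes with a Cebp symbol besides Cebpb, 4 lay above WT in KO (median 0.20), 3 in P32L (0.24) and 3 in R287Q (0.08), with none called.

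The receptor's own handling genes included chaperones that hold it ready for hormone. Of 7 tested, 7 lay above WT in P32L (median 0.23), 3 in KO (-0.01) and 1 in R287Q (-0.04), and none was called. The shares of all genes above WT were 55.5% in P32L, 52.1% in KO and 36.8% in R287Q. The chaperone gene Hsp90aa1 was at 30.7 ± 1.19 against 17.7 ± 5.77 TPM in P32L (0.81, adjusted p = 0.414), and its co-chaperone gene Ptges3 was at 10.6 ± 0.230 against 8.69 ± 0.953 TPM (adjusted p = 0.669). In the arm of insulin and AKT, which restrains FOXO factors, 8 of 8 tested genes lay above WT in P32L (median 0.12), 4 in KO (0.05) and 6 in R287Q (0.05). Irs2, which docks at the insulin receptor, was nearest the threshold in P32L, at 8.89 ± 1.14 against 3.83 ± 0.559 TPM (1.03, adjusted p = 0.0505). Its relative Irs1 was at 6.58 ± 0.514 against 4.62 ± 0.992 TPM (0.45, adjusted p = 0.758).

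Of 13 tested genes of other muscle ubiquitin ligases, 2 lay above WT in KO (median -0.08), 6 in P32L (-0.01) and 2 in R287Q (-0.15), and none was called. The shares of all genes above WT, for this and the next lists, were 52.1% in KO, 55.5% in P32L and 36.8% in R287Q. Asb2, a ligase gene of muscle, was lowest against WT in R287Q, at 32.7 ± 6.27 against 43.3 ± 5.34 TPM (-0.41, adjusted p = 0.839). Trim54, the gene of a MuRF1 relative, was at 32.4 ± 4.57 against 39.5 ± 5.41 TPM in R287Q (-0.28, adjusted p = 0.976). Autophagy genes under FOXO stayed near WT: 9 of 13 lay above it in KO (median 0.04), 11 in P32L (0.08) and 9 in R287Q (0.01), led in P32L by Gabarapl1, which builds autophagosomes (0.23, adjusted p = 0.900). Of 6 tested genes of the mTORC1 arm, 3 lay above WT in KO (-0.03), 5 in P32L (0.14) and 2 in R287Q (-0.08). Ddit4l, the paralogue of Ddit4, was at 88.5 ± 7.21 against 120 ± 8.75 TPM in R287Q (-0.43, adjusted p = 0.760).

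Of 4 tested genes of amino acid breakdown, a process KLF15 drives, 4 lay above WT in KO (median 0.05), 4 in P32L (0.08) and 2 in R287Q (0.08). Gpt2, an alanine transaminase gene, was at 19.8 ± 2.05 against 15.4 ± 3.89 TPM in P32L (0.36, adjusted p = 0.930). Of 10 denervation genes 3 were tested, and 3 lay above WT in KO (median 0.30), 2 in P32L (0.07) and 3 in R287Q (0.10), with none called. In P32L the differences were -0.11 for Gadd45a and 0.07 for the acetylcholine receptor gene Chrna1. Myog, a myogenic factor that denervation raises, was at 4.59 ± 0.940 TPM in P32L against 2.73 ± 0.650 TPM in WT (0.59, adjusted p = 0.587). Of 14 tested clock genes 9 lay above WT in KO (median 0.01), 11 in P32L (0.17) and 6 in R287Q (-0.04). At an unadjusted p under 0.05, 1 of the 14 was higher and 0 lower in KO. In P32L 7 were higher and 1 lower, and in R287Q 6 were higher and 1 lower. Of all genes, 5.95%, 6.52% and 5.36% stood there in the 3 lines, in either direction. Per1, which also stands among the receptor targets, was the 1 called, in P32L. The sum of the 8 slow-fibre markers ran from 130 to 219 TPM in WT, 30.0 to 387 TPM in KO, 11.9 to 130 TPM in P32L and 52.3 to 368 TPM in R287Q. Of the 8 markers, 1 lay above WT in KO, 0 in P32L (median -1.39) and 8 in R287Q (median 0.23), with none called, and the part of fibre type in the values of the 10 genes was not tested.

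**Figure D5:**
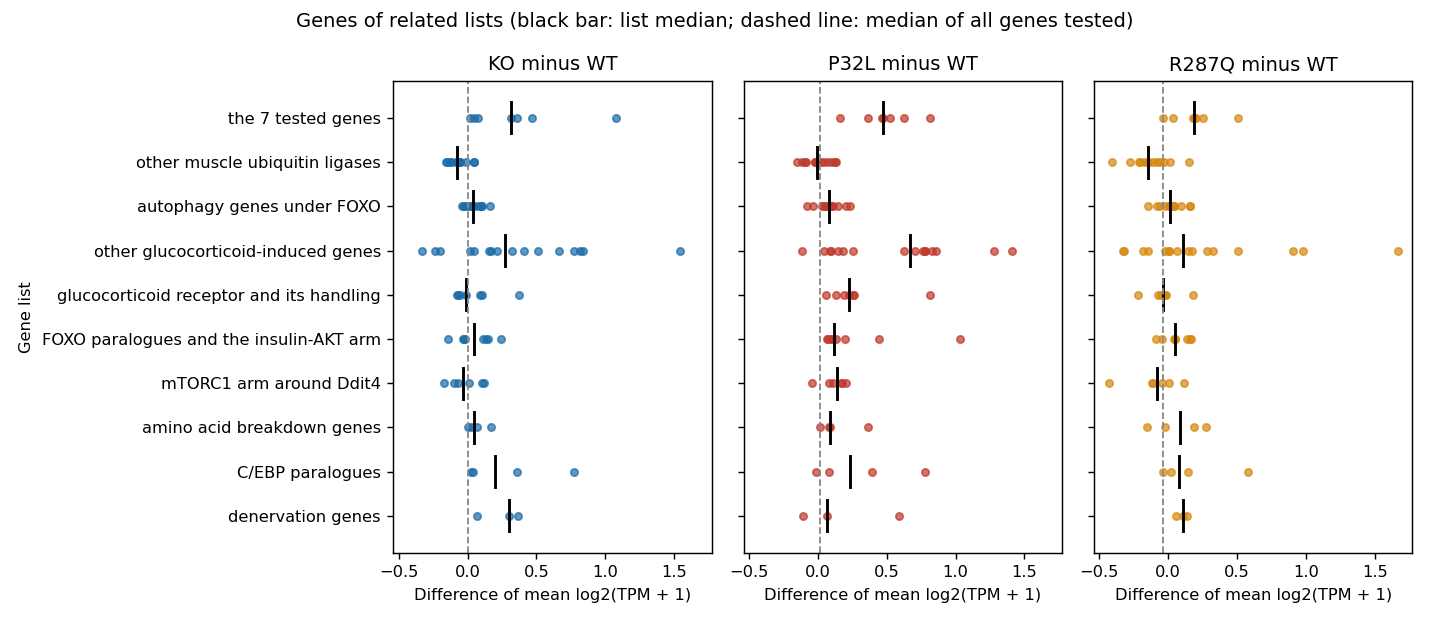
Each point is a tested gene, at its difference of mean log2(TPM + 1) from WT in KO, P32L and R287Q, black bars are list medians, and the dashed line is the median of all genes tested. The other glucocorticoid-induced genes have medians of 0.27, 0.67 and 0.10, and the other muscle ubiquitin ligases -0.08, -0.01 and -0.15.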

How the data were processed

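RNA from the gastrocnemius of 12 mice was sequenced, 3 in each of 4 groups. The authors deposited 1 table of log2 values per gene symbol and mouse. They were read as log2(TPM + 1), since undoing that transform gave library sums from 997591 to 998739. FastQC, HISAT2, StringTie and DESeq2 with build mm10 are named per the submitters' processing notes; their versions, and the nature of the adjustment that the table's name mentions, were not given in the sources used here. TPM keeps no depth, so no counting interval is given.

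The 10 genes and all lists were chosen with earlier results of these data known. The 9152 genes averaging 1 TPM or more were tested with limma 3.58.1 (R 4.3.3) on the deposited values, with an intensity trend, over all 12 libraries (8 residual and 3.11 prior degrees of freedom), two-sided, with Benjamini-Hochberg adjustment over all genes tested. Within-group correlations used an exact permutation test. The procedures were checked on simulated data. The text names the 10 genes, the 2 genes of lowest p of a pathway list in a comparison, and the 3 genes most like 5 of the 10. Not all of those list genes are printed, and Mstn was added as the lowest of its list. Genes were placed with GENCODE M21 and promoters taken from RefSeq (GRCm38.p6). Alternatives were another pseudocount, filters, scalings, variance models, a replicate block and leaving out each library.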

Additional observations from a re-analysis of the deposited data

How the results depend on the processing

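The count of 0 called among the 7 tested genes held in all 22 other settings for KO and R287Q against WT and for the 3 comparisons between lines. In P32L it became 1, Trim63, under median-of-ratios scaling and 1 under quantile normalization. No pair correlation within groups was called in any of 18 settings. With the replicate number as a block, 0 of the 7 were called in any comparison. Same-numbered mice of different groups did not deviate together (r over genes -0.53 to 0.24, median -0.34 over 18 pairs). Differently numbered mice had r from -0.23 to 0.40, with a median of 0.21 over 36 pairs. These values give no ground to pair mice by number, and whether mice shared a litter or batch was not tested. The number of genes entirely above WT was 3 in KO in every setting, 4 to 6 in P32L, and 2 to 5 in R287Q, 5 with mitochondrial genes left out, when Foxo1 and Foxo3 also passed the filter; leaving out 1 library gave 3 to 4. These last settings were chosen after seeing the data. Of the 21 differences from WT, 14 kept their sign in every setting. The others did not. With mitochondrial genes left out, Fbxo30 in KO was at -0.0476, Tsc22d3 in KO at -0.0170 and Fbxo32 in R287Q at 0.0380. Under quantile normalization Fbxo30 in KO was at -0.0089 and Fbxo32 in R287Q at 0.00505, and under median-of-ratios scaling Fbxo32 in R287Q was at 0.0123. Leaving out 1 library moved Fbxo30 between -0.0318 and 0.0733 in KO and -0.0141 and 0.0796 in R287Q, Klf15 between -0.0263 and 0.146 in KO, Tsc22d3 between -0.176 and 0.308 in KO and -0.0397 and 0.444 in R287Q, Fbxo32 between -0.145 and 0.0696 in R287Q, and Ddit4 between -0.248 and 0.446 in R287Q. Over all genes, the number called ran from 0 to 20 in KO, 0 to 28 in P32L and 0 to 34 in R287Q. The cause was not tested. Depth is unknown, so the counting error of the 3 genes below 1 TPM cannot be given.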
